A study of Mus musculus with 4 samples.

Results

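Of 10 gene symbols for secreted carrier proteins, 8 were present in the deposited table. They are Obp1a, Obp2a and Obp2b, which encode odorant-binding proteins, the lipocalins Lcn3, Lcn4 and Lcn11, and Mup4 and Mup5, which encode major urinary proteins. The genes were chosen by measured values, because several of them were very high in the library of sorted respiratory basal cells (RBCs). Their levels in that library against the cultures are therefore given as a description, with no test. The remaining 2 symbols, Lcn13 and Lcn14, are listed in the RefSeq gene table (GRCm38) as other names of Obp2a and Obp2b, so the 10 symbols stand for 8 genes of the 23281 in the table. The series holds RNA sequencing of 3 libraries of horizontal basal cells (HBCs), the reserve stem cells of the mouse olfactory epithelium, from wildtype mice, cultured to passage 3 with no sort given. The fourth library came from RBCs of the KRT5-CreER;Ai9-fl(stop)TdTomato strain, taken by microdissection and sorted as TdTomato+. In that strain the red reporter marks cells in which the keratin 5 promoter drove the inducible Cre, and whatever those cells later became. The labels give neither the age nor the number of the animals, and do not say whether each HBC library had its own animal, so p-values here measure only the spread among those 3 libraries, which may be technical. The RBC group has 1 library, and the groups also differ in culture, sort and strain, whose parts in any difference cannot be told apart.

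Lipocalins are small secreted proteins that fold into a barrel with a pocket for a hydrophobic molecule. Odorant-binding proteins and major urinary proteins are lipocalins that carry odorants and pheromones, and in the mouse nose they are known as products of nasal glands that are released into the mucus. Most of the genes lie in tandem clusters with relatives, which is why the assignment of reads among copies has to be examined.

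The genes fall on 3 chromosomes. In the gene table, Obp2a, Obp2b, Lcn3 and Lcn11 follow one another on chromosome 2 with only the protein-coding gene Bmyc between them, Lcn4 lies apart on the same chromosome, Mup4 and Mup5 are on chromosome 4, and Obp1a is on chromosome X. The upstream bases are shown because 7 of the 8 genes have a promoter entry in RefSeq (GRCm38.p6) and are high in the same library. Each line gives the 100 bases before the annotated start, 5′ to 3′ on the gene's strand, and capitals mark TATAAA, the core of a TATA box. Mup5 had no entry.
Obp1a, chrX:78091375-78091474, minus strand: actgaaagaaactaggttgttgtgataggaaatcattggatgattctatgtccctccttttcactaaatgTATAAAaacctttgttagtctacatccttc
Obp2a, chr2:25699974-25700073, plus strand: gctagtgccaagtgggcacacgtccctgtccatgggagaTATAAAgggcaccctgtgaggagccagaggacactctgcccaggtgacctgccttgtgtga
Obp2b, chr2:25736907-25737006, plus strand: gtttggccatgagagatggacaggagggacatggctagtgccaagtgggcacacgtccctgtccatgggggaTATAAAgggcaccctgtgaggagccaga
Lcn3, chr2:25765433-25765532, plus strand: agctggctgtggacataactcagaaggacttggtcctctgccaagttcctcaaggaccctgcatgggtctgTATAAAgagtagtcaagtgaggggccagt
Lcn4, chr2:26671283-26671382, minus strand: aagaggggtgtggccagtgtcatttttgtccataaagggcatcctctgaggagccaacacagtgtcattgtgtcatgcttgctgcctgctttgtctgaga
Lcn11, chr2:25776917-25777016, plus strand: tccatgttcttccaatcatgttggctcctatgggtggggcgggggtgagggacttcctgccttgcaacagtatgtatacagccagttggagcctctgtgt
Mup4, chr4:59960668-59960767, minus strand: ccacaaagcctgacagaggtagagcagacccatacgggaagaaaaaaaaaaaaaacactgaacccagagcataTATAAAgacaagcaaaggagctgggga

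TATAAA stood on the gene's own strand in the 250 bases before the start of 5 of the 7 genes, against 7.59% of all 32851 promoters in the table. Searched on both strands, it was in the same 5 of 7 genes and in 12.4% of all promoters. In Obp1a, Obp2b, Lcn3 and Mup4 it began 30, 28, 29 and 27 bases before the annotated start. In Obp2a it began 61 bases before the start. The printed bases on either side of it are nearly the same in Obp2b, where the annotated start lies closer. The matches in these 2 genes are therefore not independent. The letters were not found in the windows of Lcn4 and Lcn11. The forkhead motif TGTTTAC was in none of the 7 windows on either strand (3.17% of all promoters), and TGTTCT, a steroid receptor half-site, was in 2 of 7 on either strand (16.1%). No match of one motif overlapped a match of another, and each match is a description of letters only.

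Values below are FPKM, a measure of fragments relative to transcript length, after division by 1 depth factor per library, so that genes can be compared per length. The RBC value is 1 library with no replicate. Where a value was above 0 in a culture, it was of the order of 1 or 2 reads. In 766 genes with a single annotated transcript and all values below 4, the smallest deposited value was multiplied by transcript length (in kilobases), and the median product, 1.26, was taken as the worth of 1 read.

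Obp1a encodes an odorant-binding protein of nasal secretions. It stood at 2.08, 1.67 and 0 in HBC libraries 1, 2 and 3 and at 99076 in the RBC library, where it was the 4th highest of all genes. On the worth of 1 read, the deposited culture values came to 1.06, 1.05 and 0 reads. It was listed at 0 in HBC library 3 alone.

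The Obp2 pair on chromosome 2, lipocalins of the odorant-binding type, was listed at 0 in each of the 3 HBC libraries. Obp2a stood at 34558 in the RBC library (rank 19) and Obp2b at 19930 (rank 44). Next to them in the same cluster, Lcn11 was at 0, 2.05 and 0 in the cultures and at 26184 in the RBC library (rank 30). The single value above 0 came to 1.11 reads.

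Lcn3 and Lcn4 carry the older names Vnsp1 and Vnsp2 in the gene table, for vomeronasal secretory proteins, and are known from glands of the vomeronasal organ and nasal septum. Both were listed at 0 in all 3 HBC libraries. Lcn3 stood at 9210 in the RBC library (rank 117) and Lcn4 at 1763 (rank 705), the lowest level among the 8 genes. Lcn4, which lies outside the run of Obp2a, Obp2b, Lcn3 and Lcn11, was thus lower than each gene of that run in this library.

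Major urinary proteins are best known from liver and urine, where they carry male pheromones, while Mup4 and Mup5 are members known from nasal, salivary and lacrimal glands. Mup4 was at 0, 0 and 2.75 in HBC libraries 1, 2 and 3 and at 27753 in the RBC library (rank 26). The value in HBC library 3 came to 2.15 reads. Mup5 was listed at 0 in all 3 cultures and stood at 15498 in the RBC library (rank 66).

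**Figure D1:**
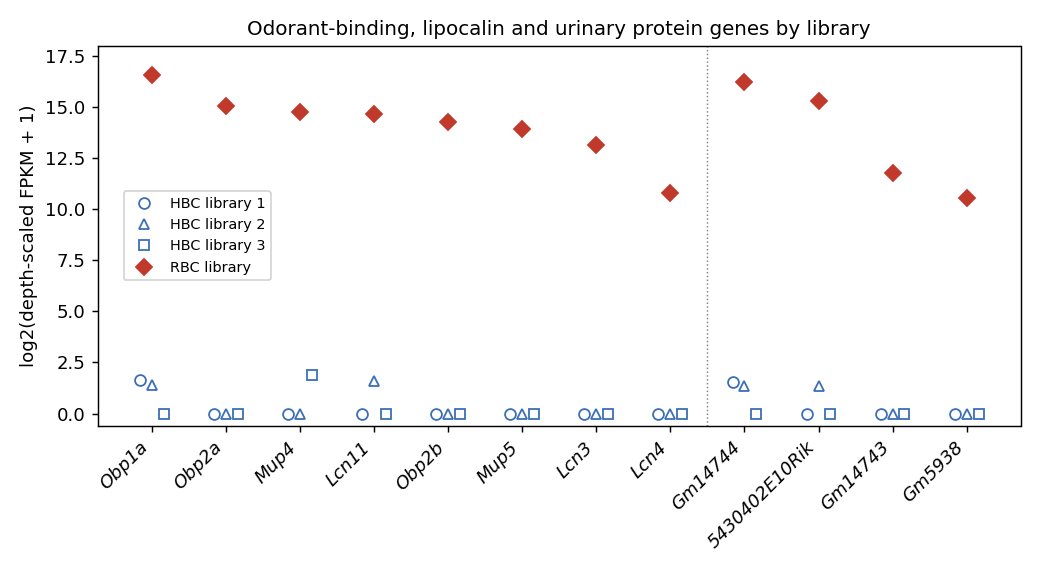
Level of each gene on the log2(depth-scaled FPKM + 1) axis in the 3 HBC libraries (open blue symbols) and the RBC library (red diamonds), with 4 further odorant-binding genes of the X chromosome cluster right of the dotted line. All culture values lie at 0 or at the worth of 1 or 2 reads, and the RBC values of the 8 genes run from 1763 for Lcn4 to 99076 for Obp1a.

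In the RBC library the order per length was Obp1a, Obp2a, Mup4, Lcn11, Obp2b, Mup5, Lcn3 and Lcn4. With 1 library there is no spread by which to say whether neighbours in that order, such as Mup4 (27753) and Lcn11 (26184), differ. All 8 genes were above each of the 3 cultures, as were 46.4% of all 23281 genes, and 5 of the 8 were at 0 in every culture and above 0 in the RBC library, as were 9.17% of all genes. Since these same values chose the genes, nothing is read from the counts. Across all 16438 genes tested with limma, 34.2% passed as higher in the RBC library and 12.8% as higher in the cultures (adjusted p under 0.05 and at least 2-fold). The share of calls that pointed to the RBC library was 72.7%, and it was 53.2% after scaling all libraries to the same median and 46.4% with quantile normalization. The median log2 difference of all tested genes was 0.45, against -0.08 and -0.12 under those scalings. The 8 genes had differences of 10.78 for Lcn4 to 15.58 for Obp1a on the log2(value + 1) scale, whose size is set by the pseudocount because the cultures were at or near 0. A gene was tested where the mean of the group means was at least 1, so 3236 genes passed only through the RBC library, and 2700 of the 5619 calls for that library were among them. Of the 13202 other tested genes, 22.1% were called for the RBC library, and counts of calls in the gene lists are read against that share.

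Together the 8 genes held 2.52% of the summed values of the RBC library. Their summed level was 233971 there and 2.08, 3.71 and 2.75 in HBC libraries 1, 2 and 3. Obp1a alone held 1.07%, the 5 chromosome 2 genes 0.986% and the Mup pair 0.465%. Of the 30 highest genes of the RBC library, 4 belonged to the set. The share of the set was 1.71% when the 10 highest genes of each library, Obp1a among them, were left out.

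**Figure D2:**
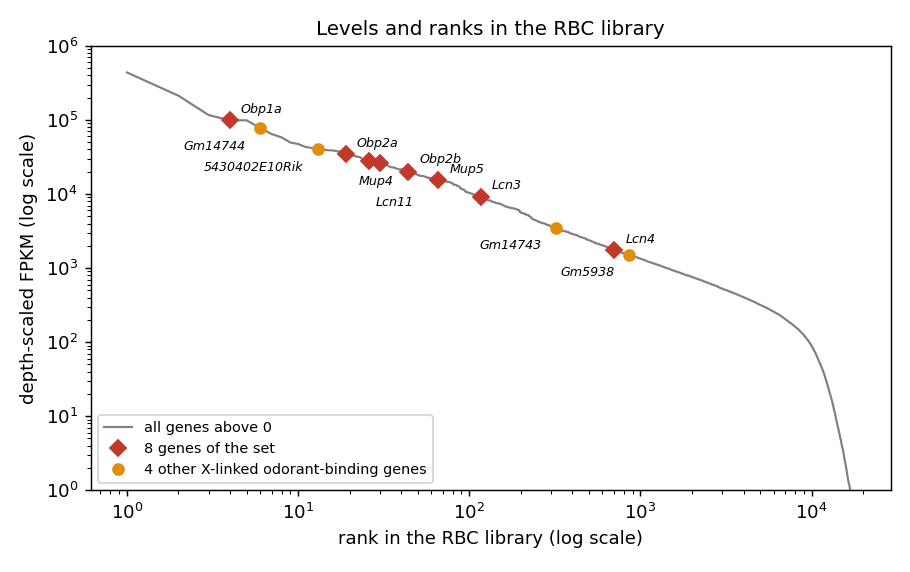
Depth-scaled FPKM against rank in the RBC library, both on log scales, for all genes from 1 upward (grey line), the 8 genes (red diamonds) and 4 other odorant-binding genes of the X chromosome (orange circles). Obp1a is 4th and Gm14744 is 6th, while Lcn4 and Gm5938 sit at ranks 705 and 855.

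Near-identical copies blur how reads are split among such genes, and the annotation shows where. In GENCODE M21, the 8 transcripts are 652 to 925 bases long with coding parts of 492 to 564 bases. Coding sequences of the 28 pairs were aligned end to end. Mup4 and Mup5 matched at 92.3% of aligned positions and Obp2a and Obp2b at 75.4%, and the other 26 pairs matched at 51.1% to 60.6%. Reads of 50 bases that match 2 genes exactly cannot be placed, and the sources used here do not give the read length. Of all 50-base windows of a transcript, 17.1% in Mup5, 12.4% in Mup4, 11.9% in Obp2b, 11.7% in Obp2a and 7.20% in Obp1a were also present in another gene. Lcn3, Lcn4 and Lcn11 had none. The partners were Gm5938 for Obp1a, the other Obp2 gene for Obp2a and Obp2b, and 24 genes for each Mup. With windows of 100 bases, a length added after the data were seen, the shares were 1.33% for Mup5, 0 for Mup4, 4.90% for Obp2b, 4.81% for Obp2a and 0 for Obp1a. The split between Mup4 and Mup5, and between Obp2a and Obp2b, is thus uncertain for reads from the shared stretches. The symbols Mup4 and Mup5 are also listed as other names of Mup2 and Mup8, so the naming of single Mup genes in the table carries its own uncertainty.

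The coding start of the Obp2 pair is shown because reads that lie within it cannot be told apart. The 2 transcripts also share 31 windows of 100 bases, so the stretch they share is longer than the coding bases printed. The first 82 coding bases, from the start codon on, are identical in the 2 genes.
Obp2a and Obp2b: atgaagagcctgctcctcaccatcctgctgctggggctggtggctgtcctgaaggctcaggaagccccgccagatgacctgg
Further in, the genes diverge, and coding bases 235 to 351 are shown as the part with the most differences. Capitals mark bases that differ or have no partner in the alignment, which was the case at 42 aligned positions.
Obp2a: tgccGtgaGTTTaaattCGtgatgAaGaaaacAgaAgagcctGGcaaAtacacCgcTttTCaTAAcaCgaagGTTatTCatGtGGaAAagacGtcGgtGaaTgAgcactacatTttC
Obp2b: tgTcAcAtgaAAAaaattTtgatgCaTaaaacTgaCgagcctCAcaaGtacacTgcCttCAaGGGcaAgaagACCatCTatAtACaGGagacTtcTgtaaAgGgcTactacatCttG
Reads of some length from these bases can name 1 gene of the pair. The coding starts of Mup4 and Mup5, the closest pair among the 8 genes, are shown in the same way, with 16 aligned positions that differ or have no partner.
Mup4: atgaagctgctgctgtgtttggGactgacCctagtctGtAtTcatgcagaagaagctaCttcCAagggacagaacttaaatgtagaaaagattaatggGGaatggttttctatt
Mup5: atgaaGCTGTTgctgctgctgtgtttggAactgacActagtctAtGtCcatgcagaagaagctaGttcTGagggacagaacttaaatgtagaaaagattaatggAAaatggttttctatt
Between those capitals lie stretches that both genes share.

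**Figure D3:**
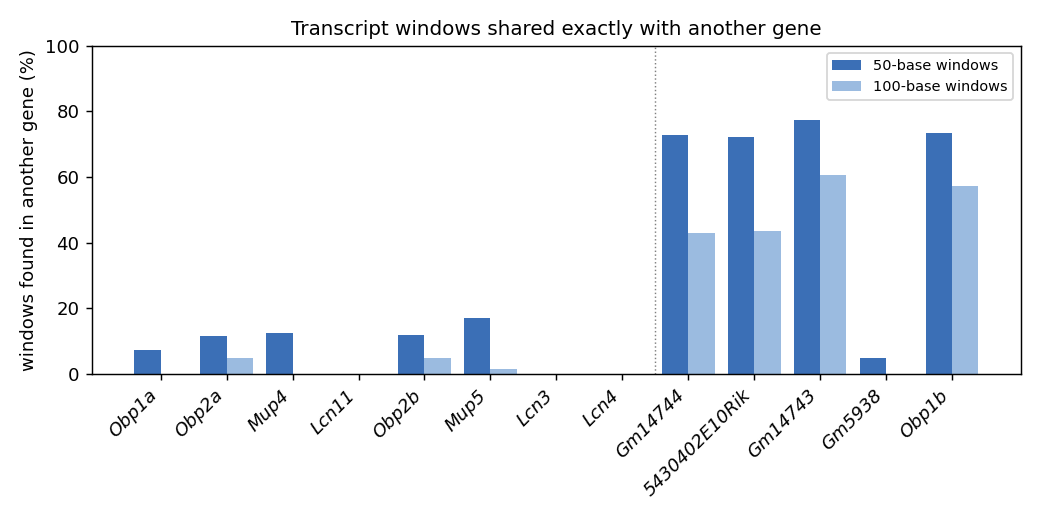
Percent of the 50-base (dark) and 100-base (light) windows of each gene's annotated transcripts that occur exactly in a transcript of another gene, for the 8 genes (left of the dotted line) and 5 X-linked relatives. The 8 genes lie between 0 and 17.1%, while Gm14744, 5430402E10Rik, Gm14743 and Obp1b exceed 70% with 50-base windows.

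The X chromosome cluster around Obp1a held further genes at high levels that the list of symbols does not name. Its protein-coding neighbours in the gene table are Pbsn, Gm14744, 5430402E10Rik, Gm5938, Obp1b and Gm14743, and RefSeq lists names of the OBP series for Gm14744, 5430402E10Rik, Gm5938 and Obp1b. Gm14744 was at 1.93, 1.55 and 0 in HBC libraries 1, 2 and 3 and at 77842 in the RBC library (rank 6). 5430402E10Rik was at 0, 1.55 and 0 and at 40633 (rank 13). Gm14743 (3510) and Gm5938 (1513) were listed at 0 in every culture. Pbsn, the prostate lipocalin probasin at the edge of the cluster, was listed at 0 in all 4 libraries, and the table has no row named Obp1b. Adding the 4 genes raised the share of the RBC library's summed values to 3.85%.

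Among these X-linked genes, 2 pairs matched more closely than any pair of the 8. Gm14744 and 5430402E10Rik matched at 98.7% of their coding positions, and Gm14743 and Obp1b at 99.8%. Of their 50-base windows, 72.7% in Gm14744, 72.1% in 5430402E10Rik and 77.5% in Gm14743 occurred in another gene, so single values for these genes are uncertain. A sum over them is uncertain as well, because Gm14743 shared its windows with Obp1b, which has no row of its own. Besides each other, Gm14744 and 5430402E10Rik shared windows with Gm14750. Their upstream 100 bases differed at 1 position, T26C, counted from 1 at the 5′ end with the base of Gm14744 first. The first 120 coding bases show how little separates this pair, with capitals at the 3 bases that differ.
Gm14744: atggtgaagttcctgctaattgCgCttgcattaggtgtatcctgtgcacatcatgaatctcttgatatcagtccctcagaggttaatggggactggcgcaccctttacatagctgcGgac
5430402E10Rik: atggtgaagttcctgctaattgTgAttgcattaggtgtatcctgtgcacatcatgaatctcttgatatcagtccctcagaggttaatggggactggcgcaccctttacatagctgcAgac

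Obp1a and Gm5938 matched at 90.1% of their coding positions but shared only 7.20% of the 50-base windows of Obp1a, and they differed widely in level (99076 and 1513 in the RBC library). Their upstream 100 bases differed at 3 positions, G8A, A9G and T71C, counted from 1 at the 5′ end of the printed bases with the base of Obp1a first. The last of these falls on the first base of TATAAA in Obp1a, printed in capitals among the upstream sequences, and the motif is therefore not marked in Gm5938.
Gm5938, chrX:78125367-78125466, plus strand: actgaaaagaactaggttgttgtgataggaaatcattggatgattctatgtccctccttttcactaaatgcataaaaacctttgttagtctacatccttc
Whether that base bears on the level was not tested.

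The other lipocalin genes of the mouse did not all follow the 8. Of 20 listed, 12 could be tested, and 6 of these passed the filter only through the RBC library. In the remaining 6, limma made 1 call for the RBC library, Ptgds, and 2 for the cultures, Lcn2 and Orm1. Of all 13202 genes that did not depend on the RBC library to pass, 22.1% were called for that library and 2105 genes for the cultures. The genes that passed only through the RBC library and were called for it were Gm14744, 5430402E10Rik, Gm14743, Apod and Lcn12 (3.62 in the RBC library, named after its value was seen). They reached the filter by their RBC values, so no p is given for them. Orm2, named after its values were seen, also passed only that way and was not called. It was at 2.02, 0 and 0 in HBC libraries 1, 2 and 3 and at 3.25 in the RBC library. A further 6 of the 20 were listed at 0 in all 4 libraries, among them Lcn5, Lcn6 and Lcn10, the neighbours of Obp2a, and Lcn9, on the other side of the cluster.

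Lcn2, the siderophore-binding lipocalin of antibacterial defence, was the abundant lipocalin of the cultures. It stood at 11703, 11749 and 11941 in HBC libraries 1, 2 and 3 and at 762 in the RBC library, 15.5-fold lower (limma adjusted p = 2.54e-05). The 3 cultures lay within a narrow range, and the RBC library was far below it. Orm1, an acute-phase lipocalin, was at 63.3, 65.3 and 90.2 in the cultures and at 29.5 in the RBC library, 2.47-fold higher in the cultures (limma adjusted p = 0.0384). That call was lost with values as deposited (adjusted p = 0.123) and without HBC library 1 (0.0942) or 2 (0.109), with limma's adjusted p between 0.00154 and 0.123 over the alternatives.

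Ptgds, the lipocalin-type prostaglandin D synthase, was at 1.92, 1.53 and 3.08 in the cultures, of the order of single reads, and at 128 in the RBC library (log2 difference 5.37 ± 0.36 SE, limma adjusted p = 0.00343). Apod, apolipoprotein D, a carrier of small lipids, was at 0, 1.68 and 0 in the cultures and at 267 in the RBC library. C8g, a complement component with a lipocalin fold, was at 15.9, 30.2 and 24.8 and at 41.2, and it was not called (limma adjusted p = 0.208).

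Among 18 other Mup genes in the table, 16 were listed at 0 in all 4 libraries. Mup3 was at 46.0 and Mup6 at 5.52 in the RBC library, and both were listed at 0 in the cultures. Both passed the filter only through the RBC library, so their difference is given as values, with no test. Mup20 and Mup3, which follow Mup5 in the gene table, thus stood at 0 and 46.0 where Mup5 was at 15498, and Mup6 and Mup7, which follow Mup4, stood at 5.52 and 0 where Mup4 was at 27753.

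**Figure D4:**
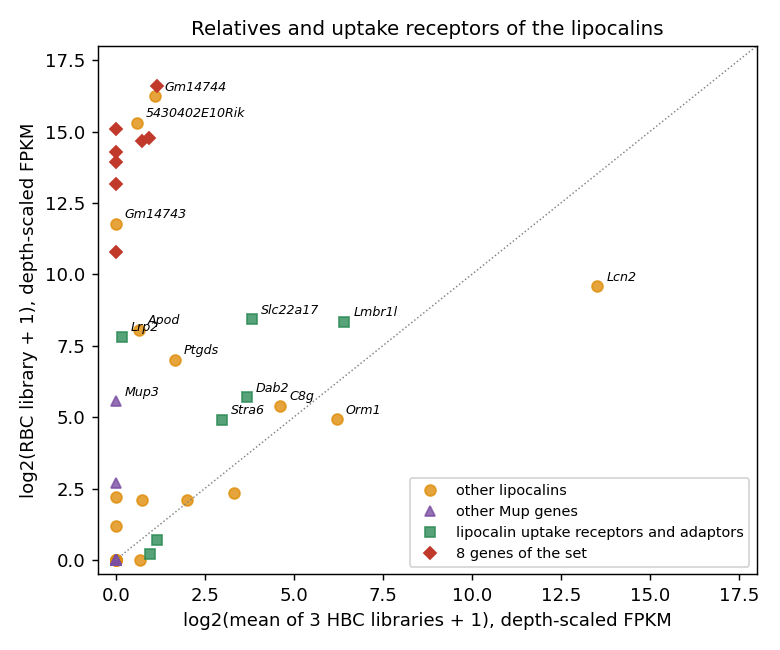
RBC level against the mean of the 3 HBC libraries, both as log2(depth-scaled FPKM + 1), for other lipocalins (orange), other Mup genes (purple), lipocalin uptake receptors and adaptors (green) and the 8 genes (red). The dotted line marks equal levels; Lcn2 (11798 in the cultures, 762 in the RBC library) lies far below it and the 8 genes lie along the upper left edge.

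Receptors and adaptors that take up lipocalins were also compared. Of 7 listed, 5 were tested, and 1 of these, Lrp2, passed the filter only through the RBC library. Limma called the other 4 higher in the RBC library, against 22.1% of genes of that kind. Cubn and Amn, which form a scavenger receptor in the gut and kidney, averaged 0.949 ± 0.378 and 1.25 ± 1.65 (SD, n = 3) in the cultures and stood at 0.166 and 0.623, below the level tested. Lrp2, or megalin, an endocytic receptor for many lipocalins, was at 0.152, 0.122 and 0.120 in the cultures and at 224 in the RBC library, which is given with no test. Slc22a17, described as a receptor for Lcn2, was at 18.3, 11.6 and 10.1 and at 344, a 25.8-fold difference (limma adjusted p = 0.00624). Lmbr1l, a lipocalin receptor of the plasma membrane, was at 91.4, 81.9 and 80.5 and at 325, 3.84-fold higher (limma adjusted p = 0.00233). Stra6, the receptor for retinol-binding protein, averaged 6.94 ± 0.513 (SD, n = 3) and stood at 29.2. Dab2, an adaptor for megalin endocytosis, averaged 11.8 ± 0.237 (SD, n = 3) and stood at 50.9. Under quantile normalization Stra6 turned to a log2 difference of -0.17 and Dab2 fell to 0.32, and neither was called.

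Genes outside the set were ranked by likeness to it across the 4 libraries, by Euclidean distance of log2(value + 1). Nearest to the median profile of the 8 were Bpifb1 (16608 in the RBC library, distance 0.855), Serpina3n (16143, distance 1.03), Chi3l4 (8219, distance 1.47), Dmbt1 (7812, distance 1.56), 5430402E10Rik (distance 1.59), Sec14l3 (7478, distance 1.74), Pon1 (5636, distance 2.47) and Gm14743 (distance 2.70). Pairs of the 8 genes lay 0.363 to 6.20 apart. For Obp1a alone the order began with Gm14744 (distance 0.361) and 5430402E10Rik (2.07), followed by Bpifb1, Serpina3n, Adh1, Dmbt1, Chi3l4 and Sec14l3. With cultures at or near 0, this measure ranks genes mainly by their RBC level. Bpifb1 and Dmbt1 encode secreted proteins of airway and gland mucus, and Serpina3n a secreted protease inhibitor. Sec14l3 is in the list of sustentacular cell markers used below, so the nearest genes are not all gland genes.

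Genes outside the clusters' families but beside the 8 on the chromosome had other patterns. Bmyc, between Obp2a and Obp2b, was at 232, 306 and 308 in the cultures and at 366 in the RBC library. Agpat2 and Egfl7, before Lcn4, averaged 529 and 108 in the cultures and stood at 348 and 19.3 in the RBC library.

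Marker genes of several cell types moved with the 8 genes. In the RBC library fewer cells of a type and less RNA per cell cannot be told apart in either direction, since each library is a bulk sample. Basal markers were present in both groups: limma made 7 calls of 10 for the RBC library, against 22.1%, and 1 for the cultures, and Krt5 was at 18381, 19004 and 18353 in the cultures and at 26422 in the RBC library, under the 2-fold minimum. Of 20 genes of nasal and salivary glands, 18 were tested and 9 of these passed only through the RBC library, 6 of them at 0 in every culture. In the other 9, limma made 6 calls for the RBC library and 1, Aqp5, for the cultures. Their summed level was 21715 to 22870 in the cultures, mostly Aqp5 (20389 ± 581, SD, n = 3), and 96723 in the RBC library, mostly Scgb1c1 (64693). The gland genes Dcpp1 (3068), Muc5b (1202) and Sox10 (108) were listed at 0 in every culture, and Smr3a at 0 in all 4 libraries. The salivary carbonic anhydrase Car6 averaged 3.37 ± 0.514 (SD, n = 3) and stood at 789.

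Markers of other cells are given by their summed levels and by the calls among genes that did not depend on the RBC library to pass, to be read against 22.1%. Ciliated cell genes summed to 185 to 219 in the cultures and 5753 in the RBC library, with 3 calls for the RBC library among 3 such genes. Olfactory neuron genes summed to 135 to 170 and 5670, with 5 calls of 5. Sustentacular genes summed to 43897 to 46197 and 327322, with 5 of 6. Most of both came from Cbr2, which averaged 42503 in the cultures and stood at 212906 in the RBC library. Secretory genes summed to 5093 to 5452, mostly Cyp2f2 (5127 on average), and 543845, mostly Bpifa1 (438313), with 4 of 4. Scgb1a1 and Tff3 were listed at 0 in all 4 libraries. The 10 Bowman's gland genes summed to 19923 to 21011 in the cultures, mostly Aqp5, and to 16129 in the RBC library. Of these, 8 passed only through the RBC library and 7 were at 0 in every culture. Of the other 2, Aqp5 was called for the cultures and Sox9 was not called. Aqp5, Sox10, Muc5b and the Dcpp genes are also in the nasal and salivary gland list, so the lists overlap. Among cells outside the epithelium, leukocyte genes summed to 37.7 to 44.7 and 16004, of which Lyz2 gave 14733, with 3 calls of 3. Fibroblast genes summed to 584 to 595 and 9881, of which Dcn gave 6885, with 6 of 7. Endothelial genes summed to 6.93 to 9.27 and 114, with 1 of 1, since 9 of the 10 passed only through the RBC library. Ptprc, the pan-leukocyte marker, stood at 10.5 in the RBC library and Pecam1 at 12.1. Which cells carried the odorant-binding, lipocalin and Mup transcripts in the RBC library was not tested.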

How the data were processed

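RNA sequencing of 3 HBC libraries and 1 RBC library gave 1 table. The authors deposited FPKM values, 1 per gene symbol and library. STAR, Cufflinks 2.2.1, Cuffnorm and the build mm9 are named in the submitters' processing notes, without role or order. The sources used here do not give annotation, strand, read length or depth in reads. The sum of the deposited values was 8377232 (HBC 1), 10335122 (HBC 2), 10855996 (HBC 3) and 9877606 (RBC). One read appeared to have a like worth between libraries, as for Obp1a, deposited at 1.76 in HBC 1 and 1.75 in HBC 2. The worth of a read was not worked out for each library apart. That depth was still in the values is therefore an assumption about the deposited values. They were divided by median-ratio factors (0.845, 1.05, 1.07 and 1.06) from 11134 genes with a value of at least 10 in each of the 4. No counting interval can be given without counts.

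The test, two-sided with Benjamini-Hochberg adjustment, was limma 3.58.1 (R 4.3.3, eBayes with trend) on log2(value + 1), for 16438 genes whose mean of group means was at least 1. Only the HBC libraries gave a spread, so p-values assume that the RBC library varies alike. No p is printed for a gene that passed only through the RBC library. The fit was tested on simulated data. A listed 0 may stand for an estimate that failed. Members and lists were chosen with earlier results of these data known. Named were the 8 genes, list genes above 10 in either group, the 8 nearest profiles, cluster neighbours and defining markers. Transcripts (GENCODE M21) and promoters (RefSeq) are of GRCm38, not mm9. Coding sequences were compared in place of proteins. Of 29 lipocalin entries 20 were listed, and 18 of 19 Mup entries.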

Additional observations from a re-analysis of the deposited data

How the results depend on the processing

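The 8 genes were chosen by their RBC values and were at or near 0 in the cultures. Their direction was thus fixed in advance, and nothing is read from its staying the same. Each of the 8 genes was higher in the RBC library under the 9 alternatives of scaling, pseudocount and left-out HBC library. Its log2 difference moved with the pseudocount, for Obp1a from 13.11 with 10 to 17.05 with 0.1 and for Lcn4 from 7.47 to 14.11. Genes called higher in the cultures numbered 2105, against 3789 with equal medians and 3649 under quantile normalization, where 3161 in place of 5619 were higher in the RBC library. The number of other lipocalins called higher in the cultures fell with values as deposited and without HBC library 1 or 2. It rose under quantile normalization. The log2 difference of Orm1 ran from -2.69 to -1.05 over the alternatives. Other Mup genes called for the RBC library were 1 in place of 2 under quantile normalization, with pseudocount 10 and with a minimum of 5. That pair of genes was at 0 in every culture and passed the filter only through the RBC library, so nothing is read from the count. Uptake receptors, counting Lrp2, which also passed only that way, were 3 in place of 5 under quantile normalization. There C8g turned to -0.79 and Stra6 to -0.17. The set's share of the RBC library was 1.71% without the 10 highest genes of each library and 2.61% over genes present in all 4 libraries plus the set. No paired analysis was possible because the RBC group has 1 library and shares only 1 replicate number with the cultures. The cause of these changes was not tested. Depth in reads is unknown, which limits what a value of 0 can show.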
